A study of Mus musculus with 8 samples.

Results

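The enzymes that write, maintain and remove DNA methylation were examined in mouse embryonic stem (mES) cells with and without Trim71, a stem cell RNA-binding ubiquitin ligase. The members were the 9 rows of the table with the symbols Dnmt1, Uhrf1, Dnmt3a, Dnmt3b, Dnmt3l, Tet1, Tet2, Tet3 and Tdg, of 13558 rows in all. The table keeps transcripts whose higher group mean reached about 10 normalised reads, and all 9 were in it. The series holds mRNA sequencing of 4 KO and 4 WT libraries. All cells were male, of the C57BL/6 strain, and were grown in serum with LIF, the cytokine that holds mES cells undifferentiated. All carried the floxed Trim71 allele together with a tamoxifen-inducible Cre expressed from the ubiquitous Rosa26 locus. Cells called WT kept the floxed allele, with the genotype label Trimfl/fl. Cells called KO (genotype label Trim-/-) received 4-hydroxytamoxifen, which per the labels was given at 500 nM for 2 days, although the methods of the study name a lower dose, and were harvested at least 7 days later. For control cells the methods of the study name DMSO as the vehicle. Deletion, 4-hydroxytamoxifen and active Cre went together in KO, so their effects cannot be told apart. SSEA-1 positive cells were enriched with magnetic beads before RNA was taken. The libraries came from only 2 clones. Clone E3 gave KO replicates 1 to 3 and WT replicates 2 and 3, and clone 1 gave KO replicate 4 and WT replicates 1 and 4. Each library also carries a day number, whose meaning is not given in the sources used here. Days 3, 4 and 5 each hold 1 KO and 1 WT library of the same clone, KO replicate 1 is from day 2 and WT replicate 1 from day 1.

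DNA methylation of CpG sites is copied after replication by Dnmt1, which Uhrf1 guides to hemimethylated DNA. New methylation is set by Dnmt3a and Dnmt3b, whose activity is raised by the catalytically inactive Dnmt3l. The Tet enzymes oxidise 5-methylcytosine, and Tdg excises the most oxidised forms so that base excision repair can put back an unmodified cytosine. Mouse ES cells are known for high Dnmt3b, Dnmt3l and Tet1 expression, and in serum culture they hold much more methylated DNA than in medium with kinase inhibitors.

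Recovered reads, worked out from the deposited values, ran from 6880208 in WT replicate 2 to 25566980 in WT replicate 3. Trim71 itself was at 247 to 793 normalised reads in KO and at 1988 to 2782 in WT, with a log2 fold change of -2.39 (SE 0.35). For Trim71 the adjusted p of KO against WT was 0.294 in limma with Benjamini-Hochberg adjustment over all transcripts. The deletion removes exon 4 only, so reads from the remaining exons still count towards Trim71. No transcript reached an adjusted p under 0.05 in this test (0 of 13558, smallest 0.275), while 1232 had an unadjusted p under 0.05. With the clone correction undone 6 transcripts reached it, with voom on the recovered reads 2, and with voom and day as a block 5, with an adjusted p of Trim71 of 0.0866, 0.0415 and 0.0146. None of the 9 enzymes was among them (0 of 9 in each of these limma fits). The 7 ES cell markers examined, Pou5f1, Nanog and Sox2 among them, summed to 52566 to 64207 normalised reads in KO and 49161 to 58263 in WT. The 5 markers of primitive endoderm summed to 238 to 518 in KO and 80.5 to 429 in WT, but differed in direction. Gata4, Gata6 and Sox17 were at log2 1.41, 1.79 and 1.34, with the lowest WT library at 1.72, 1 and 1. Pdgfra was at -0.48 and Dab2 at -0.34. None of the 5 had an unadjusted p under 0.05 in limma. With day as a block Pdgfra (-0.68) and Dab2 (-0.75) did. The 3 fibroblast markers in the table summed to 89.5 to 170 in KO and 67.9 to 139 in WT (Col3a1, Dcn, Lum and Postn were not in the table). The 4 neural markers summed to 712 to 983 in KO and 850.4 to 1504 in WT, with Nes lower in KO (log2 -0.50, unadjusted p = 0.0161 in limma). Tubb3 was at log2 -0.67, Pax6 at -0.56 and Sox1 at 0.31. The 3 mesoderm markers in the table summed to 127 to 155 and 96.2 to 148, with Eomes higher in KO (log2 0.51, unadjusted p = 0.0384 in limma). The groups of Eomes overlapped, and its call was lost in 6 of the 8 fits that left out 1 library. With day as a block it was at log2 0.44 (unadjusted p = 0.0343 in limma), where 19.2% of all transcripts had an unadjusted p under 0.05. T was at log2 1.00, with a WT library at the floor of 1, and Kdr at -0.36. The part of these cell types in the differences given here was not tested. In such bulk samples, fewer cells of a type and less RNA per cell cannot be told apart.

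Across the 9 enzymes, the log2 fold changes of KO against WT ran from -0.24 (Dnmt3a) to 0.64 (Tdg). By the sign of the log2 fold change 4 were higher and 5 lower in KO, and their median was -0.10, beside 0.00 (-0.000357) for all transcripts. Tdg alone had an unadjusted p under 0.05 (1 of 9 members), against 9.09% of all transcripts. It was also the only member past the criterion of an unadjusted p under 0.05 with a change of at least 1.5-fold, which 4.25% of transcripts met. And it was the only member whose KO and WT libraries did not overlap, against 10.1% of transcripts, or 5.48% that were higher in KO. No member had an adjusted p under 0.05 (0 of 9 in limma, smallest 0.457). The other 8 members had unadjusted p-values from 0.116 to 0.636, with 95% intervals of the fold change that ran at their widest from 0.494 to 2.76. The narrowest of them was that of Dnmt1, from 0.711 to 1.07.

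**Figure D1:**
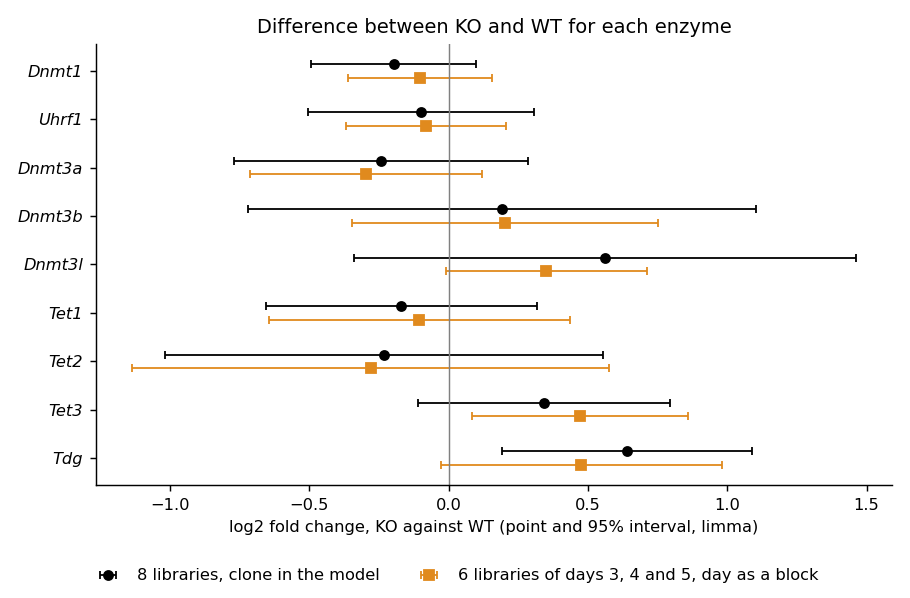
Log2 fold change of KO against WT for each enzyme (x axis, log2 units, limma), with 95% intervals. Black points use all 8 libraries with clone in the model, and orange squares the 6 libraries of days 3, 4 and 5 with day as a block. The black interval of Tdg lies above 0 (log2 0.64) and those of the other 8 span 0, while with the block the interval of Tet3 lies above 0 (log2 0.47) and that of Tdg reaches below it.

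Levels between genes were compared as normalised reads per kb of merged exon in WT. Dnmt3l was the highest at 2549 ± 1044 (SD, n = 4), followed by Uhrf1 at 1459 ± 241 and Dnmt1 at 998 ± 95.2. Dnmt3b stood at 876 ± 389, Tet1 at 858 ± 118, Dnmt3a at 438 ± 121 and Tet2 at 375 ± 71.2 reads per kb. Tet3 and Tdg came last at 22.5 ± 2.13 and 20.8 ± 3.05 reads per kb. WT ranges of neighbours overlapped for Dnmt3l and Uhrf1, Dnmt1 and Dnmt3b, Dnmt3b and Tet1, Dnmt3a and Tet2, and Tet3 and Tdg. With this length these pairs cannot be ranked. The steps from Uhrf1 to Dnmt1, from Tet1 to Dnmt3a and from Tet2 to Tet3 separated ranges that did not overlap. Thus the catalytically inactive Dnmt3l had the highest WT mean per kb, and Tet1 made up most of the Tet transcripts. Tet1 took 68.4% ± 1.86 (SD, n = 4) of the reads per kb of the 3 Tet genes in WT and 68.6% ± 3.43 in KO. Tet2 took 29.8% ± 1.90 in WT and 28.6% ± 4.62 in KO, and Tet3 took 1.81% ± 0.185 and 2.76% ± 1.24. The order of the means did not change when the length of a single coding transcript per gene was used in place of merged exons, but which neighbours overlapped did. Tet3 then ran from 39.4 to 48.3 reads per kb in WT and no longer overlapped Tdg, at 17.2 to 24.5. Dnmt3l, at 2037 to 5454, no longer overlapped Uhrf1, at 1166 to 1692.5, while the ranges of Uhrf1 and Dnmt1 overlapped. The share of Tet3 among the Tet reads was then 3.49% ± 0.352 in WT and 5.26% ± 2.30 in KO.

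**Figure D2:**
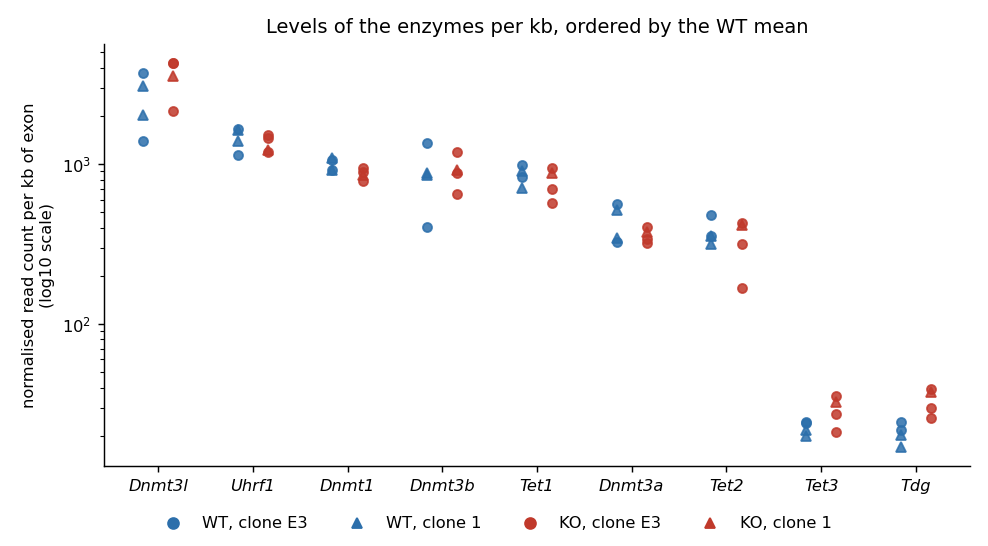
Normalised reads per kb of exon on a log10 axis for each enzyme, ordered by the WT mean from left to right. Each point is a library, blue for WT and red for KO, with circles for clone E3 and triangles for clone 1. Dnmt3l is highest (WT mean 2549) and Tet3 and Tdg lie far below the other 7 (WT means 22.5 and 20.8).

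The maintenance pair was considered first. Dnmt1 (chr9:20907209-20959888, GRCm38, minus strand), the maintenance methyltransferase, read 4972, 5964, 5634 and 5358 normalised counts in the KO libraries, in the order of their replicate numbers. The WT libraries, in the same order, read 6911, 6692, 5760 and 5788. Of the KO libraries 3 lay below every WT library, and KO replicate 2 lay within the WT range. The log2 fold change was -0.20 (SE 0.13, unadjusted p = 0.162 in limma). The exact two-sided permutation test over the 70 assignments of the libraries gave p = 0.114, where the smallest it can give is 0.0286.

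Uhrf1 (chr17:56303321-56323486, plus strand), the hemimethyl-CpG reader and ubiquitin ligase that recruits Dnmt1, was at 5349, 5589, 4383 and 4514 in KO and at 5999, 6069, 4182 and 5143 in WT. The groups overlapped fully. Its log2 fold change was -0.10 (SE 0.17, unadjusted p = 0.582 in limma), and within clone E3 alone the sign turned, to 0.012. In both genotypes the day 3 library of Uhrf1 was the highest, and a day 4 library the lowest. Over the 8 libraries Dnmt1 and Uhrf1 correlated at a Pearson r of 0.59 on the log2 scale, as a description.

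Among the de novo enzymes, Dnmt3a (chr12:3806007-3914443, plus strand) differed between the clones before the clone correction, which the deposited values do not show. Its deposited values were 3193, 4017, 3352 and 3721 in the KO libraries and 3422, 5618, 3224 and 5120 in the WT libraries. WT replicates 2 and 4 stood above every KO library, while WT replicates 1 and 3 lay among them. The log2 fold change of KO against WT was -0.24 (SE 0.22, unadjusted p = 0.317 in limma). The authors subtracted a clone effect from each transcript before deposit, and solving for whole reads gives the values before that step.

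Before the correction Dnmt3a was at 4895 in the KO library of clone 1 and at 4597 and 6295 in its WT libraries. In clone E3 it was at 2018, 2843 and 2177 in KO and at 4444 and 2050 in WT. All 3 libraries of clone 1 thus lay above all 5 of clone E3, although WT replicate 2 of clone E3 came close to the lowest of clone 1. The clone 1 mean was 5262 ± 906 (SD, n = 3) and the clone E3 mean 2706 ± 1027 (SD, n = 5). With genotype in the model Dnmt3a was 0.94 log2 units higher in clone 1 (SE 0.28, unadjusted p = 0.0123, adjusted p = 0.528 in limma). Of all transcripts 8.32% had an unadjusted p under 0.05 between the clones, and in 7.95% the clones did not overlap. Dnmt3a was the only one of the 9 members in either count, which is near these shares. No day holds libraries of both clones, so clone and day cannot be told apart in this difference. The difference lost its unadjusted p without KO replicate 4 (0.83, unadjusted p = 0.0811 in limma), the only KO library of clone 1, and ranged from 0.70 to 1.23 over the 8 fits that each left out 1 library. Both clones carry each genotype, but 3 of 4 KO libraries are from clone E3, so values before the correction cannot be compared by genotype without a clone term. The other 8 members gave unadjusted p-values of at least 0.151 between the clones.

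**Figure D3:**
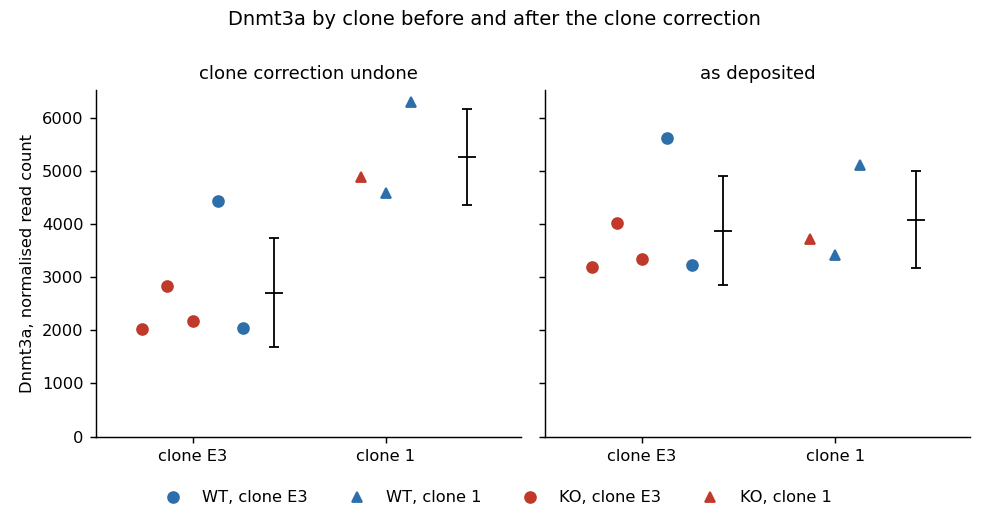
Dnmt3a in normalised read counts (y axis) by clone, with the clone correction undone (left) and as deposited (right). Points are libraries, blue for WT and red for KO, and bars give mean and SD. On the left the clones do not overlap (clone 1 mean 5262, clone E3 mean 2706), and on the right they do.

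Dnmt3b and Dnmt3l varied widely between libraries of a genotype. Dnmt3b (chr2:153649450-153687730, plus strand), the second de novo methyltransferase, was at 3804, 5149, 2830 and 4006 in KO and at 3812, 5879, 1756 and 3706 in WT. The highest WT library was 3.35 times the lowest, and the groups overlapped fully. In both genotypes the day 3 library was the highest and the day 4 library the lowest. KO against WT gave a log2 fold change of 0.19 (SE 0.39, unadjusted p = 0.636 in limma), and it turned to -0.29 when the day 4 library of WT, replicate 3, was left out.

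Dnmt3l (chr10:78041947-78063622, plus strand), the cofactor of both de novo enzymes, was at 11445, 11417, 5735 and 9577 in KO and at 5386, 9936, 3711 and 8193 in WT. KO replicates 1 and 2 exceeded every WT library, KO replicates 3 and 4 did not, and day 4 was again lowest in both genotypes. KO differed from WT by a log2 fold change of 0.56 (SE 0.38, unadjusted p = 0.185 in limma). Within each of days 3, 4 and 5 the KO library was the higher one, by 0.20, 0.63 and 0.23 log2 units. With day as a block, over those 6 libraries, the log2 fold change was 0.35 (unadjusted p = 0.0542). With the block and voom on the recovered reads it was 0.36 (unadjusted p = 0.0104, adjusted p = 0.131), in a fit where 24.5% of transcripts had an unadjusted p under 0.05. Leaving out WT replicate 2 raised it to 0.93 (unadjusted p = 0.0421 in limma), and leaving out WT replicate 3 lowered it to 0.18. Dnmt3b and Dnmt3l varied together over the 8 libraries (Pearson r = 0.84 on the log2 scale, a description). Dnmt3a made up 34.9% ± 7.63 (SD, n = 4) of the reads per kb of Dnmt3a and Dnmt3b in WT and 28.8% ± 3.80 in KO in the deposited values.

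**Figure D4:**
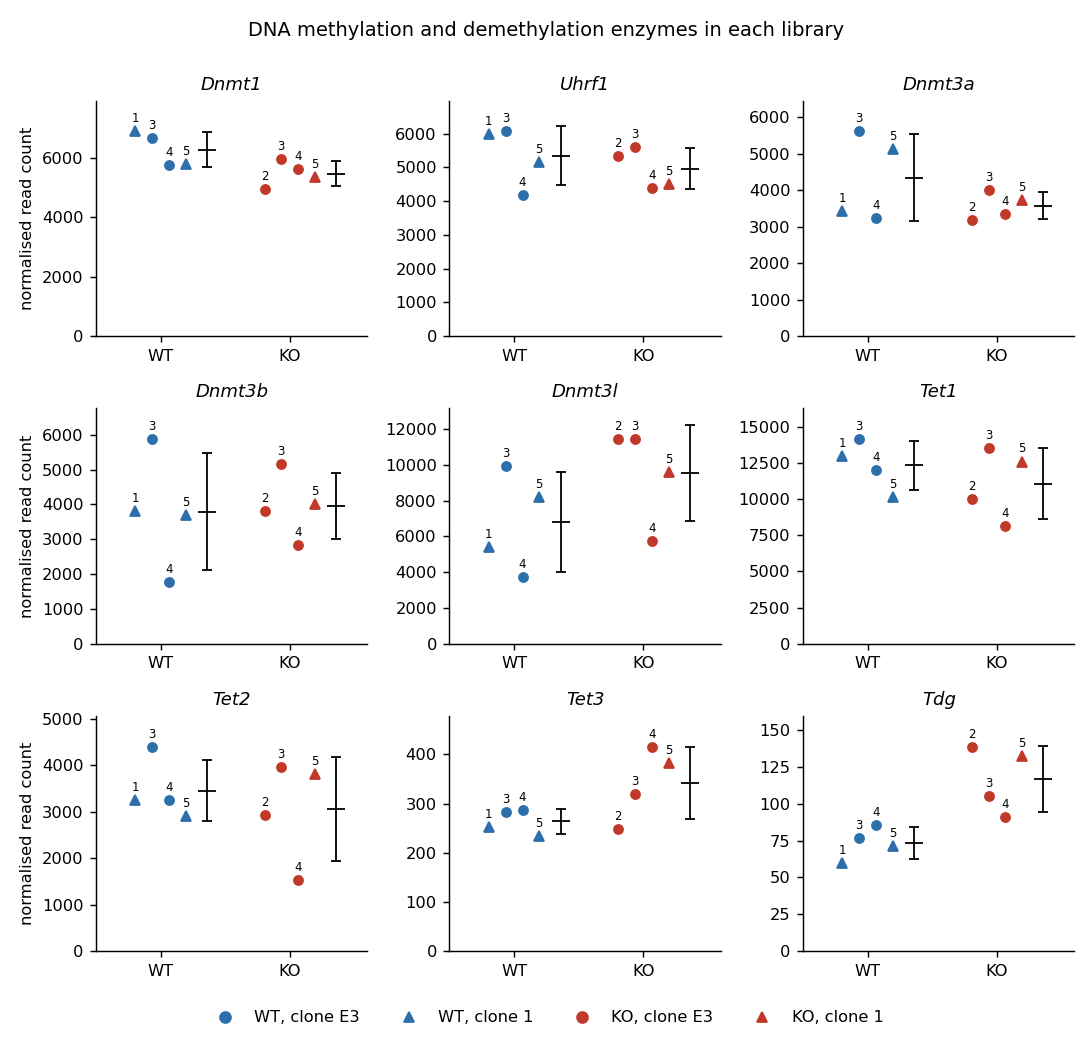
Normalised read count (y axis, from 0) of each enzyme in each library. Blue points are WT and red points KO, circles are clone E3 and triangles clone 1, the digit above a point is its day label, and bars give mean and SD (n = 4). In the Tdg panel all KO points (91.2 to 139) lie above all WT points (60.1 to 85.8), and in the other 8 panels the groups overlap.

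The Tet genes came next. Tet1 (chr10:62804570-62908996, minus strand), the main 5-methylcytosine dioxygenase of ES cells, was at 9988, 13530, 8158 and 12607 in KO and at 12973, 14171, 12032 and 10158 in WT. KO replicates 1 and 3 lay below every WT library and the other two lay inside the WT range. Its log2 fold change was -0.17 (SE 0.21, unadjusted p = 0.440 in limma), and it became 0.16 (unadjusted p = 0.246) once the trend of each library with GC content and length was removed, so its direction was not stable.

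Tet2 (chr3:133463679-133545139, minus strand), the second dioxygenase of ES cells, was at 2930, 3956, 1540 and 3820 in KO and at 3248, 4402, 3262 and 2899 in WT. KO replicate 3 stood far below the other 7 libraries, and its fit without this library gave 0.034 in place of -0.23 (SE 0.33, unadjusted p = 0.510 in limma). Tet1 and Tet2 shared their pattern over the libraries (Pearson r = 0.93, n = 8, a description). KO replicate 3 was the lowest library of both.

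Tet3 (chr6:83362373-83459084, minus strand), the dioxygenase best known from the zygote and from neurons, was weakly expressed. It was at 249, 319, 416 and 383 in KO and at 253, 282, 287 and 234 in WT. KO replicates 2, 3 and 4 lay above every WT library, and KO replicate 1 below WT replicate 1. Its log2 fold change was 0.34 (SE 0.19, unadjusted p = 0.116 in limma). Within days 3, 4 and 5 the KO library exceeded its WT partner by 0.18, 0.53 and 0.71 log2 units. With day as a block it was higher in KO by 0.47 (unadjusted p = 0.0272, adjusted p = 0.235), a fit in which 19.2% of all transcripts had an unadjusted p under 0.05 and no other member did. The same 6 libraries without the block gave 0.47 as well (unadjusted p = 0.0393). Removing the GC and length trend gave 0.49 (unadjusted p = 0.00510, adjusted p = 0.379), where 9.79% of transcripts had an unadjusted p under 0.05. Within clone E3 it was 0.17 (unadjusted p = 0.536). Its reads numbered 149 to 603 per library, which leaves a counting error of 8.19% at the lowest, in WT replicate 2. The SD between libraries was 9.45% of the mean in WT and 21.6% in KO.

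Tdg (chr10:82629828-82650799, plus strand), the thymine DNA glycosylase that excises 5-formylcytosine and 5-carboxylcytosine, was the enzyme with the smallest p-value and the fewest reads. It was at 139, 105, 91.2 and 133 normalised counts in KO and at 60.1, 76.6, 85.8 and 71.2 in WT. Every KO library lay above every WT library, although KO replicate 3 exceeded WT replicate 3 of the same day by only 0.09 log2 units. The means were 117 ± 22.5 in KO and 73.4 ± 10.8 in WT (SD, n = 4). On the log2 scale Tdg was higher in KO by 0.64 (SE 0.19), or 1.56-fold with a 95% interval of 1.14 to 2.13 (unadjusted p = 0.0116, adjusted p = 0.457 in limma). The exact permutation test gave p = 0.0286, the smallest it can give with 4 libraries a group. These values rest on 40 to 180 recovered reads per library, so counting alone leaves an error of 15.8% in the library with 40 reads.

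The call on Tdg needed KO replicate 4, the KO library of clone 1. Without it the difference was 0.44 (unadjusted p = 0.0933 in limma), in a fit where 3.26% of transcripts had an unadjusted p under 0.05. Within clone E3 alone it was 0.44 (unadjusted p = 0.122), and with day as a block it was 0.48 (unadjusted p = 0.0589). The 6 libraries of the block gave 0.48 without the block too (unadjusted p = 0.0517), so the loss came with leaving out KO replicate 1 and WT replicate 1. In each of these fits KO was higher. The difference between the clones in the effect of genotype was 0.57 log2 units for Tdg with an unadjusted p of 0.169, the smallest of the 9 members. No member had an unadjusted interaction p under 0.05 (0 of 9 in limma, smallest adjusted p 1.00), against 2.59% of all transcripts. With the clone correction undone the term for Tdg was 0.48 (unadjusted p = 0.250), and in clone 1 that term rests on 1 KO library.

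Tdg also has near-identical copies elsewhere in the genome, and the counts cannot be assigned to it with certainty. GENCODE lists the processed pseudogenes Gm9855, Gm5597 and Tdg-ps, which lack its introns. Gm9855 matches 1182 of 1191 aligned coding bases of Tdg without a gap, with a run of 756 identical bases. The stretch below runs from coding base 1054 to 1173 of Tdg, counted from 1 at the start codon, and was chosen because Gm9855 differs most from Tdg there. In Tdg it joins exons 9 and 10 of the coding exons (chr10:82648009-82648627, plus strand). It is shown to let the copies be compared with Tdg, 5′ to 3′ and from GENCODE M21 on GRCm38. Capitals in a copy mark bases that differ from Tdg, and capitals in Tdg mark bases where at least 1 copy differs.
Tdg: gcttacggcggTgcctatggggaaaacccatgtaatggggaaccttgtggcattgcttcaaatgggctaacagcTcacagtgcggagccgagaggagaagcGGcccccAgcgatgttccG
Gm9855: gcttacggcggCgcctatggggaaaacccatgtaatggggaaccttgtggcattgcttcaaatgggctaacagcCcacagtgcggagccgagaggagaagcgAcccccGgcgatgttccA
Gm5597: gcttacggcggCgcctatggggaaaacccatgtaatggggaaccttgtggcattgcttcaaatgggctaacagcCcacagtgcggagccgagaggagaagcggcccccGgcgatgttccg
Tdg-ps: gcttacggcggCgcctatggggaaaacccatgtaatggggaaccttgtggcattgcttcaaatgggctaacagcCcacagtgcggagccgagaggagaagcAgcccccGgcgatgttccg

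The copies lie at chr10:42054206-42054325 on the minus strand (Gm9855), chr7:76244839-76244958 on the minus strand (Gm5597) and chr15:82517465-82517584 on the plus strand (Tdg-ps). Over these 120 bases Gm9855 differs from Tdg at 5 positions, Gm5597 at 3 and Tdg-ps at 4. The libraries were read in 100-base reads. Of the 1164 windows of 100 bases in the Tdg coding sequence, 66.9% occur unchanged in a transcript of another gene, and 57.6% in Gm9855. The same share was 10.9% for Uhrf1, whose pseudogene Gm5648 matches part of it, 9.51% for Dnmt3b, whose paralog Dnmt3c does, and 0% for the other 6 members. These windows cover coding sequence only, for Tdg 1263 of the 3502 bases of its transcript, and the rest was not examined. They also treat each read alone, although the reads were paired and a mate can differ between the places.

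Gm9855 has a row of its own, and its counts were much higher than those of Tdg. It was at 1467, 1405, 1422 and 1368 normalised counts in KO and at 1386, 1316, 1293 and 1319 in WT, so in WT its mean was 18.1 times that of Tdg. The KO and WT libraries of Gm9855 overlapped, although 3 KO libraries lay above every WT library (exact permutation p = 0.0571). Its log2 fold change was 0.09 (SE 0.10, unadjusted p = 0.381 in limma). A linear model on untransformed values gave an unadjusted p of 0.0436 for Gm9855. The KO mean exceeded the WT mean by 43.5 normalised counts in Tdg and by 87.1 in Gm9855. Summed, the pair of rows read 1501 to 1605 in KO and 1379 to 1446 in WT, without overlap, with an exact permutation p of 0.0286. The log2 fold change of the sum was 0.13 (SE 0.10, unadjusted p = 0.229, adjusted p = 0.698 in limma). How reads that match both places were counted is not given in the sources used here, and Gm5597 and Tdg-ps have no row. The change of Tdg mRNA itself therefore cannot be given. Its own row gave 1.56-fold and the sum 1.09-fold, and the true change need not be either. The low place of Tdg in the order of levels is as uncertain.

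**Figure D5:**
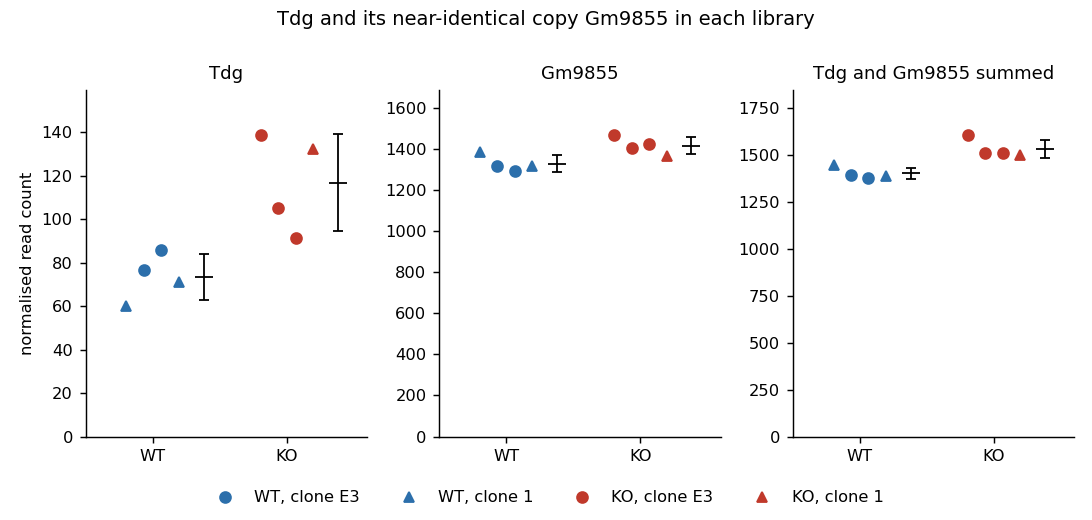
Normalised read count (y axis, from 0, a scale of its own in each panel) of Tdg, of the processed pseudogene Gm9855 and of their sum in each library. Points are libraries, blue for WT and red for KO, circles are clone E3 and triangles clone 1, and bars give mean and SD (n = 4). The KO means were 117, 1416 and 1533 and the WT means 73.4, 1329 and 1402.

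The transcripts whose pattern was most like each enzyme were looked up by the Pearson correlation of log2 values over the 8 libraries, as a description with no test. Libraries share clone, day and scaling, and among 13558 transcripts a high correlation over 8 points is easily reached. For the maintenance pair these were Chd4 for Dnmt1 (r = 0.98) and Nup133 for Uhrf1 (r = 0.99). For the de novo group they were Zeb2 for Dnmt3a (r = 0.97), Nefl for Dnmt3b (r = 0.99) and Tex19.1 for Dnmt3l (r = 0.99), the last a germline gene that is itself on a list described next. For the removal enzymes they were Ncor1 for Tet1 (r = 0.97), Plcb4 for Tet2 (r = 0.99), Gipc1 for Tet3 (r = 0.99) and Cyb5r1 for Tdg (r = 0.99).

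The other genes of the pathway were taken from 7 lists, which held 110 genes, of which 107 were in the table. Of these 3 were higher and 2 lower in KO at an unadjusted p under 0.05, beside 4.62% and 4.46% of all transcripts, and 1 passed the criterion with the fold change. None had an adjusted p under 0.05 (0 of 107 in limma), and their median log2 fold change was -0.05.

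Among the 18 partners of maintenance and de novo methylation, Ehmt2, an H3K9 methyltransferase also known as G9a, was higher in KO at this threshold, from 2190 ± 227 in WT to 2852 ± 352 in KO (SD, n = 4, log2 0.38, unadjusted p = 0.0351 in limma). The call was lost in 6 of the 8 fits that left out 1 library, and the groups overlapped. With day as a block Ehmt2 kept it (log2 0.44, unadjusted p = 0.00946 in limma). In that fit 19.2% of all transcripts had an unadjusted p under 0.05. The highest means of the list belonged to Trim28, the corepressor that holds methylation at imprints, with a log2 fold change of -0.07 (unadjusted p = 0.646), and Zfp57, which brings it there, with 0.28 (unadjusted p = 0.105). Of the 7 regulators of the enzymes in the table none had an unadjusted p under 0.05. Usp7, which deubiquitinates Dnmt1 and Uhrf1, was at -0.12 (unadjusted p = 0.500) and Ogt, the O-GlcNAc transferase that binds the Tet enzymes, at -0.28 (unadjusted p = 0.206).

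Of the 19 genes of base excision repair and deamination, Gadd45b, a stress gene linked to demethylation, was higher in KO, from 276 ± 37.6 to 367 ± 44.3 (log2 0.40, unadjusted p = 0.0348 in limma), without overlap. That call was lost in 4 of the 8 fits that left out 1 library, and with day as a block (unadjusted p = 0.0521). Parp1 and Lig3, which act after Tdg in repair, were at -0.02 (unadjusted p = 0.880) and -0.23 (unadjusted p = 0.0882). Of the 9 methyl-CpG readers none passed, with Mbd3 at 0.03 (unadjusted p = 0.811) and Mbd6 at 0.18 (unadjusted p = 0.400, and 0.0150 with day as a block).

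In the supply of methyl donor and 2-oxoglutarate 20 genes were in the table, and 2 of them were lower in KO at this threshold. Ahcyl2, a relative of the enzyme that hydrolyses S-adenosylhomocysteine, went from 605 ± 52.9 in WT to 452 ± 25.3 in KO (log2 -0.42, unadjusted p = 0.00933, adjusted p = 0.452 in limma). Its groups did not overlap, and it kept an unadjusted p under 0.05 in all 8 fits that left out 1 library. Mtr, the methionine synthase, went from 1613 ± 176 to 1262 ± 123 (log2 -0.35, unadjusted p = 0.0375), and lost the call in 6 of those 8. With day as a block Ahcyl2 was at -0.39 (unadjusted p = 0.0288 in limma) and Mtr at -0.34 (unadjusted p = 0.0192). In that fit 19.2% of all transcripts had an unadjusted p under 0.05. Mthfd1 and Gldc, both of one-carbon metabolism, were at 0.10 (unadjusted p = 0.351) and -0.23 (unadjusted p = 0.142).

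Germline genes whose promoters are silenced by methylation are known as a readout of the pathway. Of the 21 in the table Asz1 was higher in KO, at a low level of 16.5 ± 11.5 in KO and 4.62 ± 4.22 in WT (log2 1.99, unadjusted p = 0.0254 in limma), with overlapping groups and a WT library at the floor of 1. It was the 1 pathway gene past the criterion, and with day as a block its unadjusted p was 0.0748. It lost the call in 3 of the 8 fits that left out 1 library. Tex19.1 and Rhox5, the most abundant of the list, were at 0.29 (unadjusted p = 0.309) and 0.06 (unadjusted p = 0.644). The list median was 0.03. Of the 15 S-phase genes, with which Dnmt1 and Uhrf1 are known to cycle, none passed. Their median was -0.06, and Mcm2 and Mcm5 were at -0.12 (unadjusted p = 0.382) and -0.04 (unadjusted p = 0.841). With day as a block 5 of the 21 germline genes were lower in KO at an unadjusted p under 0.05. These were Sycp1 (log2 -0.71), Tdrkh (-0.46), Brdt (-0.79), Stk31 (-0.88) and Dpep3 (-0.89). They were named after their values were seen, and without the block had unadjusted p-values from 0.0850 to 0.735. With the block 3 of 18 partners, 0 of 7 regulators and 1 of 19 repair genes also had an unadjusted p under 0.05. So did 1 of 9 readers, 3 of 20 supply genes and 1 of 15 S-phase genes. In that fit 19.2% of all transcripts had one, higher or lower in KO. The counts of the lists, also without regard to direction, were near or below that share. The 5 germline genes were all lower in KO, and a share of transcripts lower in KO is not given for that fit. Whether their common direction exceeds that of other transcripts was therefore not tested.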

How the data were processed

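mRNA of 4 KO and 4 WT libraries was sequenced in 100-base paired reads. The authors aligned them to mm10 with TopHat2 and Bowtie2 2.2.1, counted reads per RefSeq transcript in Partek 6.6, normalised with DESeq2, corrected for batch, set values below 1 to 1 and dropped transcripts with low group means. The deposited unit is therefore a normalised, batch-corrected signal and not a raw count. The clone effect left in it was at most 3.16e-06 of a transcript's mean, so it had been subtracted on the linear scale. Each value was modelled as a whole number of reads scaled by its library and shifted by its transcript. This gave reads in every library for 13481 transcripts (99.4%), from which 100% of their values could be rebuilt. Recovered reads cover the listed transcripts only.

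Groups came from the labels. limma 3.58.1 (R 4.3.3) was fitted on log2(value + 1) for all 13558 transcripts with genotype and clone, with Benjamini-Hochberg adjustment. This scale understates changes of low transcripts. A 2-fold change (log2 1) was simulated in 200 of 13481 transcripts at a dispersion of 0.1 for KO against WT. The test found 159 of these at an unadjusted p of 0.05 and 0 at that adjusted p. Of 200 changed by 2 on the log2 scale it found 188 at that adjusted p, and with them 6 unchanged ones. All simulated transcripts had the same dispersion and no differences between days or clones. These counts therefore do not give the power in the real libraries, where Trim71 at log2 -2.39 had an adjusted p of 0.294 in limma. Exact permutation tests were two-sided over 70 assignments. Nothing says that libraries of a clone came from separate cultures beyond their day, so p-values measure the spread between these libraries. Alternatives were other scales, filters and spread estimates, no clone term, the correction undone, voom on recovered reads, GC and length removed (known for 99.3% of transcripts), clone E3 alone, each library left out, and day as a block. The labels give the day. Before the clone correction, deviations from the group means correlated across transcripts at 0.519 to 0.627 in the 3 pairs of 1 day. The median over 13 pairs of different days was -0.178. All 3 pairs of 1 day also share a clone, while only some of the pairs of different days do. In the deposited values the same pairs gave 0.419 on day 3, 0.540 on day 4 and -0.228 on day 5. The fits with the block used the deposited values, except those with voom or with the correction undone. Copies were found with blastn 2.17.0 (at least 90% identity) among GENCODE M21 transcripts, whose lengths and coordinates (GRCm38) were used. Python 3.11.15, numpy 2.4.6, pandas 2.3.3 and matplotlib 3.10.9 were used. Named genes were the 9 members, Trim71, each pathway list gene with an unadjusted p under 0.05, the 2 genes of each pathway list with the highest means, and for each member the transcript most correlated with it. Members and lists were chosen with earlier results of these data known. Gm9855, the other copies and the cell type markers named were chosen after values were seen.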

Additional observations from a re-analysis of the deposited data

Results flagged for a closer look

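The highest and lowest values of 28 groups of 4 libraries were compared with their neighbours, for the 9 members and the 5 pathway genes with an unadjusted p under 0.05. One library stood apart by Dixon's criterion, as chance alone would give in about 5% of groups. Ahcyl2 was at 414 normalised counts in KO replicate 3, below the other KO libraries, the highest of which was at 465. The WT libraries of Ahcyl2 began at 534, so the gap of this library to the others of its group was smaller than the distance between the groups.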

How the results depend on the processing

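Each member was refitted under 23 alternatives. Of the 207 results 185 kept their direction and their side of an unadjusted p of 0.05. Tdg lost it in 6, Tet3 gained it in 7 and Dnmt3l in 2. The sign turned in 7, none past the threshold: Tet1 with GC and length removed (0.16; 0.24 with the block), Uhrf1 in clone E3 alone (0.012), and, on leaving out 1 library, Uhrf1 without KO replicate 4 or WT replicate 2 (range -0.28 to 0.012), Tet2 without KO replicate 3 (range -0.54 to 0.034) and Dnmt3b without WT replicate 3 (range -0.29 to 0.64). The cause was not tested.

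With day as a replicate block over the 6 paired libraries, 0 members passed the criterion and 2 did not overlap, with 1015 transcripts past the criterion, 2601 with an unadjusted p under 0.05 and 5 list genes past the criterion. With the block and GC and length removed these were 0, 2, 2182 (unadjusted p) and 2 list genes, with 2 members under 0.05. With the block and voom they were 0, 2, 1084, 3297 and 6, again with 2 members, and with the block and the correction undone, added after seeing the data, 0, 2, 1025, 2515 and 3. The same 6 libraries without the block gave 0 members past the criterion and 2 without overlap. In these 6 libraries Tdg lost its call with the block and without it (0.48 in both), except with GC and length removed (0.55). Tet3 gained one with the block (0.47 to 0.53) and without it (0.47), so these changes came with the smaller set of libraries. Dnmt3l gained one with block and voom (0.36), and no other call on a member changed.

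Members past the criterion fell to 0 with a pseudocount of 10 and in clone E3 alone, where 0 had an unadjusted p under 0.05, 278 transcripts passed the criterion and 376 had an unadjusted p under 0.05. With GC and length removed 2 members had one. Transcripts past the criterion numbered 382 in the linear model and 315 at a mean of at least 50, and 1898 had an unadjusted p under 0.05 without a clone term. List genes past the criterion were 0 in the linear model, where the mean had to reach 50, where transcripts with a floor value were dropped and with the correction undone, and 2 without a clone term and with voom.

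Leaving out 1 library at a time gave 0 to 2 members with an unadjusted p under 0.05, 0 to 2 past the criterion, 1 to 2 without overlap, 260 to 835 transcripts past the criterion, 442 to 1444 with an unadjusted p under 0.05 and 0 to 2 list genes. The lowest counts of transcripts were without KO replicate 4. The added clone difference of Dnmt3a was 0.96 with voom. Tdg summed with Gm9855, added likewise, gave 0.13. Counting error was largest for Tdg, at 15.8% in a library with 40 reads.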
